A study of Mus musculus with 8 samples.

Results

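The genes described here are B4galnt4 and 9 relatives named after the same linkage: B4galnt3, B4galnt1 and B4galt1 to B4galt7. They were taken by their gene names from a count table of 47729 mouse genes, and all 10 were found. B4galnt4 was selected on these same values, for its large difference between the groups, so its own difference is described below without a test. The relatives entered by family name, whatever their level, and 9 of the 10 genes passed the filter on low counts that left 13462 genes to be tested. The one that did not was B4galt2.

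The libraries came from bone marrow of C57BL/6 mice with a chronic myeloid leukaemia-like disease. All 8 mice received marrow from donors treated with 5-fluorouracil, in which cells carried a retrovirus for the BCR-ABL1 fusion kinase with a red fluorescent reporter (RFP) and a lentivirus for a short hairpin RNA (shRNA) with the yellow fluorescent reporter Venus; the recipients had been irradiated with 900 cGy. In the knockdown group the hairpin targets Fubp1, whose protein binds single-stranded DNA and is best known for its control of Myc, and in the scrambled group it has a scrambled sequence. Each group has 4 mice with 1 library each, made from Lineage-, RFP+, Venus+ and DAPI- cells, so only living cells with both reporters and without mature lineage surface markers were sequenced. Neither the age of the mice nor the number of hairpins is stated in the labels.

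Beta-1,4 glycosyltransferases sit in the Golgi and add a sugar to the growing end of a glycan. B4GALNT3 and B4GALNT4 transfer N-acetylgalactosamine (GalNAc) to N-acetylglucosamine and so build LacdiNAc, an ending that is rare in most mammalian cells and best known from pituitary hormones. B4GALNT1 adds GalNAc to sialylated lactosylceramide and makes the gangliosides GM2 and GD2. The B4GALT enzymes transfer galactose instead: B4GALT1 to B4GALT4 make N-acetyllactosamine on glycoproteins, glycolipids and keratan sulfate, B4GALT5 and B4GALT6 make lactosylceramide, the parent of most glycosphingolipids, and B4GALT7 adds a galactose to the xylose from which glycosaminoglycan chains grow. LacdiNAc and N-acetyllactosamine are built on the same acceptor sugar.

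Library totals lay between 24042761 and 44761356 counts in the knockdown group and between 22465303 and 38495006 counts in the scrambled group. Levels are given as CPM, counts scaled to a common library size with TMM factors, and differences as log2 fold changes of knockdown over scrambled with their standard error (SE), from edgeR's quasi-likelihood test with Benjamini-Hochberg adjusted p-values over the 13462 genes and a threshold of 0.05. Over all of these genes 8.02% were called higher and 7.29% lower in knockdown libraries, and the median log2 fold change was 0.00. Fubp1 itself had 280.9, 228.0, 220.4 and 239.3 CPM in knockdown libraries, against 296.1, 284.3, 290.9 and 395.9 CPM in scrambled libraries. The groups did not overlap, but the log2 fold change of -0.39 (SE 0.12) did not pass the test (edgeR adjusted p = 0.0604); it passed by DESeq2 (adjusted p = 0.015) and by edgeR without the low count filter (adjusted p = 0.0365). Among the markers of the sorted cells, progenitor genes summed to 415.6 to 637.4 CPM in knockdown and 486.2 to 804.3 CPM in scrambled libraries. None of the 6 was called by edgeR, and DESeq2 called 2 higher. Kit, Gata2 and Myb had log2 fold changes of -0.86, -0.41 and -0.33. Cd34, Meis1 and Runx1 had 2.39, 1.36 and 0.64, and only Runx1 did not overlap. Cd34 ran from 1.46 to 104.5 CPM within the knockdown group. Erythroid genes were present in every library, with summed levels of 3984.3 to 6858.5 CPM in knockdown and 4988.1 to 5896.3 CPM in scrambled libraries. Behind that overlapping sum 5 of the 8 erythroid markers were called: the haemoglobin gene Hbb-bs and the haem synthesis gene Alas2 rose by 1.63 and 1.40 on the log2 scale, and Car2, Klf1 and Epor, a carbonic anhydrase, an erythroid transcription factor and the erythropoietin receptor, fell by 0.71, 0.46 and 0.42. Megakaryocyte markers summed to 131.5 to 213.2 CPM in knockdown and 68.0 to 86.4 CPM in scrambled libraries, without overlap, and 2 of 5 tested rose: Itga2b by 1.63 (edgeR adjusted p = 0.00282) and Gp1ba by 0.67 on the log2 scale (edgeR adjusted p = 0.0225). Like B4galnt4, the megakaryocyte sums separated the groups in every library, while the erythroid sums overlapped. Itga2b made up most of the megakaryocyte sums, with means of 127.1 CPM in knockdown and 41.0 CPM in scrambled libraries. The megakaryocyte markers Pf4, Gp9 and Vwf overlapped between groups and were not called. The part of either lineage in the differences below was not tested. Stromal markers stood apart in knockdown replicate 1, with a sum of 731.0 CPM. The collagen genes Col1a1 and Col1a2 gave nearly all of it, at 331.7 and 397.3 CPM. The knockdown libraries also differed widely in early granulocyte markers, which is taken up beside the members it touches.

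B4galnt4 (ENSMUSG00000055629) lies on the plus strand of chromosome 7, from 141061104 to 141072400 on GRCm38, and no other annotated gene overlaps it in the GENCODE annotation. Reads numbered 480, 721, 588 and 966 in knockdown replicates 1 to 4, against 45, 37, 46 and 24 in scrambled replicates 1 to 4. As levels these were 19.3, 23.8, 18.7 and 21.0 CPM in knockdown libraries, against 1.25, 1.14, 1.19 and 1.08 CPM in scrambled libraries. The groups stood far apart, and within each the libraries were close together: the highest library exceeded the lowest 1.28-fold in the knockdown group and 1.16-fold in the scrambled group. Mean levels were 20.7 ± 2.30 CPM in knockdown and 1.17 ± 0.073 CPM in scrambled libraries (SD, n = 4 each), a ratio of 17.8. The fitted log2 fold change was 4.14 (SE 0.13), and the authors' deposited table gives 3.90 (SE 0.16). By fitted fold change B4galnt4 ranked 12 among all tested genes. It ranked 1 among genes that were called, did not overlap between groups and averaged at least 5 CPM. That rank restates how B4galnt4 was selected, and the set draws on its own test, so the rank adds no result. Tnfrsf13c, the receptor for the B cell survival factor BAFF, came next in that set with a log2 fold change of 3.50.

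**Figure D1:**
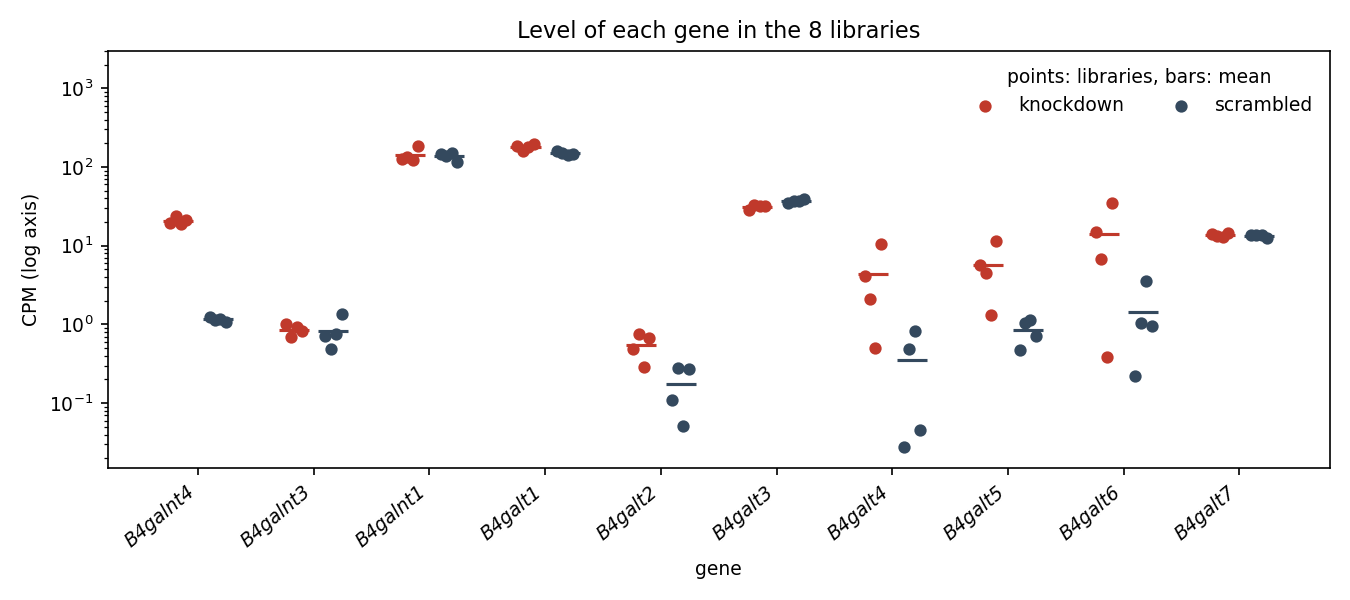
CPM (log axis) of the 10 genes in each library, with knockdown libraries left of scrambled libraries for each gene; points are libraries and bars are group means. B4galnt4 sits between 18.7 and 23.8 CPM in knockdown and between 1.08 and 1.25 CPM in scrambled libraries, while the knockdown points of B4galt4, B4galt5 and B4galt6 are spread widely.

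The promoter of B4galnt4 is shown beside those of its closest relative, B4galnt3, whose level was similar in both groups, and of B4galt5, the other gene of the family whose groups did not overlap on the higher side and that was called. Each window runs from 250 bases before to 50 bases after the gene's start in RefSeq on GRCm38.p6, which held 8 of the 10 genes. Windows are written 5' to 3' on the gene's own strand. The RefSeq start can differ from the start in the GENCODE positions given for each gene. For B4galnt4 and B4galnt3 the whole window lies upstream of the GENCODE start. Capitals mark every match to 6 motifs, searched on both strands: the MYC E-box CACGTG, the GC box GGGCGG, the CCAAT box CCAAT, the TATA box TATAAA, the GATA site AGATAA and the STAT site TTCNNNGAA.
B4galnt4, chr7:141060728-141061027, plus strand: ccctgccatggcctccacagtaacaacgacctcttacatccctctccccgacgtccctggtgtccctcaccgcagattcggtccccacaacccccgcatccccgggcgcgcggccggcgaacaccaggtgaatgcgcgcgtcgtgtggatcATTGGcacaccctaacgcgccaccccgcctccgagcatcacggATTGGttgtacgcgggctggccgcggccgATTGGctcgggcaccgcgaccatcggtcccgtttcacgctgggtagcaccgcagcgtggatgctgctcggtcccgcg
B4galnt3, chr6:120294848-120295147, minus strand: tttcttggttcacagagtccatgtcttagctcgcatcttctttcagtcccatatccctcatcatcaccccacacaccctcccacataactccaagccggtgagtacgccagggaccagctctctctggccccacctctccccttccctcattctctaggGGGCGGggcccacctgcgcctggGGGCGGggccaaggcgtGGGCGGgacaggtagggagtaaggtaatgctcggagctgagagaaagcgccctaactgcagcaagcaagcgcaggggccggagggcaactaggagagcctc
B4galt5, chr2:167349129-167349428, minus strand: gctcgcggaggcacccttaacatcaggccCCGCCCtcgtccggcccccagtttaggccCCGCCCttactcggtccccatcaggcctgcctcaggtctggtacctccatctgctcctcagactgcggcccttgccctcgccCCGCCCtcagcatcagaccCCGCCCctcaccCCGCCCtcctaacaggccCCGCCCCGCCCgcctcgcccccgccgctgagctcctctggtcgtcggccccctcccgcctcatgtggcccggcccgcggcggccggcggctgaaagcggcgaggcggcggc

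The B4galnt4 window is 68.0% G and C and holds 3 CCAAT boxes, all read as ATTGG on the gene's strand. The first is at -99 from the RefSeq start, and the other 5 motifs had no match. The windows of B4galnt3 and B4galt5 hold 3 and 7 GC boxes, some of which overlap in B4galt5, and no CCAAT box; they are 61.3% and 75.0% G and C. Of 32851 promoter windows of the same length, 37.4% hold a CCAAT box and 3.37% hold at least 3, while 35.7% hold a GC box and 10.7% at least 3. The E-box is found in 7.15%, the TATA box in 13.6%, the GATA site in 11.2% and the STAT site in 8.30% of all windows. These matches describe the letters only, and binding was not measured.

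Among the 8 tested relatives, 2 were called higher in knockdown libraries, B4galt1 and B4galt5, which is 2 of 8 against 8.02% of all tested genes. None was called lower by edgeR, where 1 gene, B4galt3, had an unadjusted p under 0.05. DESeq2 called 4 relatives higher, with B4galt4 and B4galt6 added, and 1 lower, and limma-voom called none in either direction. In the authors' deposited DESeq2 comparison B4galt1 and B4galt5 passed on the higher side (adjusted p = 0.0197 and 2.04e-05). There B4galt4 and B4galt6 did not pass (log2 fold changes 0.75 and 0.71, DESeq2 adjusted p = 0.0607 and 0.0787). The DESeq2 fit made here gave 3.61 and 3.28 for these genes from the same counts. For B4galt5 it gave 2.75, where the deposited value is 1.69. The deposited fold changes of these genes are thus not on the scale of those given here, and the cause was not tested. Over the 9 relatives with B4galt2 included, 2 did not overlap on the higher side (B4galt2 and B4galt5) and 1 on the lower side (B4galt3), where 9.54% of all tested genes did not overlap on the higher side and 11.1% on the lower side. Leaving out 1 library at a time gave 0 to 4 relatives called higher. The 4, without knockdown replicate 3, included B4galt2, which passed the filter in that fit. Such small numbers of genes say little about the family as a whole, and its members are described one by one.

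**Figure D2:**
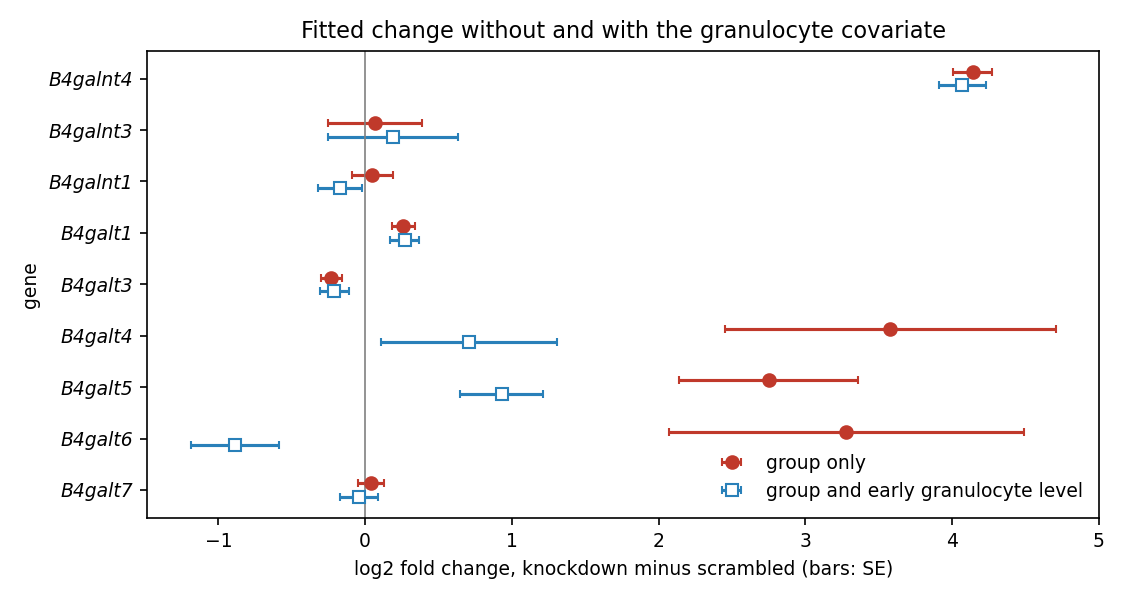
Log2 fold change of knockdown over scrambled for each tested member with its standard error, from the fit on group alone and from the fit that adds the early granulocyte marker level of each library. B4galnt4 stays at 4.14 and 4.07, while B4galt4, B4galt5 and B4galt6 move to 0.71, 0.93 and -0.89.

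B4galnt3 (ENSMUSG00000041372; chromosome 6, 120203073 to 120294559, minus strand), the other LacdiNAc synthase, was scarce in both groups. Its counts were 25, 21, 29 and 38 in knockdown libraries, against 26, 16, 29 and 30 in scrambled libraries. As levels these were 1.01, 0.694, 0.920 and 0.827 CPM in knockdown libraries, against 0.722, 0.492, 0.753 and 1.35 CPM in scrambled libraries. The groups overlapped fully, and the log2 fold change was 0.07 (SE 0.32, edgeR adjusted p = 0.903). Per kilobase of exon, a scale on which genes can be compared, B4galnt4 stood at 5.38 ± 0.596 CPM in knockdown and 0.303 ± 0.0189 CPM in scrambled libraries, and B4galnt3 at 0.228 ± 0.0355 CPM in knockdown and 0.219 ± 0.0967 CPM in scrambled libraries. In scrambled libraries the levels of these genes lay within the spread of B4galnt3, and in knockdown libraries B4galnt4 was the higher by far.

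B4galnt1 (ENSMUSG00000006731; chromosome 10, 127165225 to 127172330, plus strand), the GM2 and GD2 synthase, was one of the most abundant members. It had 127.2, 132.4, 122.5 and 184.4 CPM in knockdown libraries, against 145.8, 136.2, 149.2 and 116.9 CPM in scrambled libraries. Knockdown replicate 4 was above all other libraries and scrambled replicate 4 below them, while the other 3 knockdown libraries were below the other 3 scrambled libraries, so the groups overlapped as a whole. The log2 fold change was 0.05 (SE 0.14, edgeR adjusted p = 0.849). Slc26a10 overlaps the gene, and the labels do not say whether the authors counted by strand, so the same reads could be shared; this also holds for B4galt2 (Ccdc24, Slc6a9), B4galt3 (Ppox), B4galt1, B4galt4, B4galt7 and B4galnt3, which overlap other annotated genes.

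Of the N-acetyllactosamine synthases, B4galt1 (ENSMUSG00000028413; chromosome 4, 40804602 to 40854005, minus strand), the main galactosyltransferase of glycoproteins in most tissues and in milk a part of lactose synthase, had 182.5, 158.4, 182.1 and 196.5 CPM in knockdown libraries, against 161.4, 152.5, 140.1 and 147.6 CPM in scrambled libraries. It rose to 179.9 ± 15.8 CPM in knockdown, against 150.4 ± 8.91 CPM in scrambled libraries (SD, n = 4 each), a log2 fold change of 0.26 (SE 0.08, edgeR adjusted p = 0.0493). The groups touch, because knockdown replicate 2 lies below scrambled replicate 1. The call rests on the threshold: it was lost on leaving out any library except knockdown replicate 2, with adjusted p up to 0.118, and by limma-voom (adjusted p = 0.0602).

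B4galt3 (ENSMUSG00000052423; chromosome 1, 171270328 to 171276896, plus strand) had 28.8, 32.8, 32.4 and 31.6 CPM in knockdown libraries, against 34.5, 36.5, 36.6 and 39.7 CPM in scrambled libraries. Every knockdown library was below every scrambled library. The log2 fold change of -0.23 (SE 0.07) did not pass edgeR's test (adjusted p = 0.062), while DESeq2 gave an adjusted p of 0.0216 and the authors' deposited table one of 0.0227. B4galt2 (ENSMUSG00000028541; chromosome 4, 117869260 to 117883487, minus strand) had only 12, 23, 9 and 31 counts in knockdown libraries, against 4, 9, 2 and 6 in scrambled libraries, or 0.551 ± 0.211 CPM in knockdown and 0.177 ± 0.113 CPM in scrambled libraries (SD, n = 4 each). These groups did not overlap, and without the low count filter the log2 fold change was 1.66 (SE 0.52, edgeR adjusted p = 0.0748). Of the fits that left out 1 library and tested B4galt2, only that without knockdown replicate 3 called it (log2 fold change 1.90, edgeR adjusted p = 0.027).

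B4galt4 (ENSMUSG00000022793; chromosome 16, 38742264 to 38769049, plus strand), which acts on keratan sulfate and glycolipids, passed the filter through the knockdown group alone. It had 4.15, 2.11, 0.508 and 10.6 CPM in knockdown libraries, against 0.0278, 0.492, 0.831 and 0.045 CPM in scrambled libraries. Knockdown replicate 4 was the highest and replicate 3 lay among the scrambled libraries, a 20.9-fold range within the group. The log2 fold change of 3.58 (SE 1.13) did not pass the test (edgeR adjusted p = 0.0676).

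The lactosylceramide synthases shared this shape. B4galt5 (ENSMUSG00000017929; chromosome 2, 167298444 to 167349183, minus strand) had 5.68, 4.49, 1.33 and 11.4 CPM in knockdown libraries, against 0.472, 1.05, 1.14 and 0.719 CPM in scrambled libraries, so the groups did not overlap. It rose, with a log2 fold change of 2.75 (SE 0.61, edgeR adjusted p = 0.0234), although the knockdown libraries differed by 8.56-fold and the call was lost without knockdown replicate 1 or any 1 of the scrambled libraries (adjusted p up to 0.0709). B4galt6 (ENSMUSG00000056124; chromosome 18, 20684599 to 20746404, minus strand), which also passed the filter through the knockdown group alone, had 14.9, 6.74, 0.381 and 34.5 CPM in knockdown libraries, against 0.222, 1.05, 3.56 and 0.944 CPM in scrambled libraries. Its knockdown libraries spanned a 90.7-fold range, with replicate 3 below 3 of the 4 scrambled libraries, and the log2 fold change of 3.28 (SE 1.21) did not pass the test (edgeR adjusted p = 0.0995).

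B4galt7 (ENSMUSG00000021504; chromosome 13, 55599896 to 55610443, plus strand), the first galactosyltransferase of glycosaminoglycan chains, varied little within either group. It had 14.1, 13.2, 12.8 and 14.6 CPM in knockdown libraries, against 13.7, 13.5, 13.5 and 12.4 CPM in scrambled libraries. The log2 fold change was 0.04 (SE 0.09, edgeR adjusted p = 0.793).

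Per kilobase of exon, the order in knockdown libraries was B4galt1 at 42.5 ± 3.74, B4galnt1 at 41.0 ± 8.33, B4galt3 at 5.74 ± 0.328, B4galnt4 at 5.38 ± 0.596, B4galt7 at 4.72 ± 0.285, B4galt6 at 2.44 ± 2.55, B4galt4 at 1.35 ± 1.38, B4galt5 at 1.33 ± 0.976, B4galnt3 at 0.228 ± 0.0355 and B4galt2 at 0.109 ± 0.042 CPM per kilobase (SD, n = 4). The leading pair, B4galt1 and B4galnt1, did not differ beyond their spread, nor did B4galt3 and B4galnt4, nor the run from B4galt6 to B4galt5. In scrambled libraries B4galnt1 led at 39.7 ± 4.20, followed by B4galt1 at 35.5 ± 2.10, B4galt3 at 6.74 ± 0.389 and B4galt7 at 4.59 ± 0.214 CPM per kilobase (SD, n = 4). B4galnt4 came next, at 0.303 ± 0.0189 CPM per kilobase in that group, and the other 5 genes lay below it, at 0.0353 to 0.248 CPM per kilobase. In that group B4galnt1 and B4galt1 did not differ beyond their spread, nor did B4galnt4, B4galt6 and B4galnt3. B4galnt4 thus stood in knockdown libraries beside B4galt3 and B4galt7, and in scrambled libraries among the scarce members.

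Early granulocyte markers (Mpo, Elane, Prtn3, Ctsg, Ms4a3, Fcnb, Cebpe and Gfi1, genes of promyelocyte granules and of the factors that drive them) differed in the same libraries as B4galt4, B4galt5 and B4galt6. Their summed level was 1973.0, 949.8, 86.7 and 3609.5 CPM in knockdown replicates 1 to 4, against 35.9, 165.2, 332.9 and 84.1 CPM in scrambled replicates 1 to 4. From high to low, the knockdown libraries ran 4, 1, 2 and 3 for these markers and for B4galt4, B4galt5 and B4galt6 alike, while B4galnt4 ran 2, 4, 1 and 3. Genes without a called difference could share the order 4, 1, 2 and 3. Among them were B4galt7 (log2 fold change 0.04) and Mgat2, an N-glycan branching gene (log2 fold change 0.02). How many of all genes share it was not counted. None of the 7 tested markers was called by edgeR, although all 7 had an unadjusted p under 0.05, and DESeq2 called all 8 higher and limma-voom none. In these bulk samples fewer cells of a type and less RNA per cell cannot be told apart. With the marker level of each library as a covariate, a fit chosen after seeing the data, the log2 fold change was 4.07 (SE 0.16) for B4galnt4, 0.71 (SE 0.60) for B4galt4, 0.93 (SE 0.28, edgeR adjusted p = 0.0922) for B4galt5 and -0.89 (SE 0.30, edgeR adjusted p = 0.123) for B4galt6. The part of granulocyte cells in the differences of the last 3 genes was not tested. Mature neutrophil markers were low throughout, at 0.666 to 25.5 CPM in knockdown and 1.35 to 6.78 CPM in scrambled libraries, and Ms4a1 and Cd3e, markers of B and T cells, were at 0 in every library. Other markers of those lists were not: Nkg7, a gene of cytotoxic granules, had 27.6, 18.8, 2.00 and 86.6 CPM in knockdown libraries, against 1.8, 5.57, 8.10 and 2.25 CPM in scrambled libraries, in the same knockdown order as the granulocyte markers. B cell markers summed to 0.508 to 3.83 CPM in knockdown and 0.225 to 1.09 CPM in scrambled libraries, and macrophage markers to 7.77 to 44.9 CPM in knockdown and 4.00 to 8.86 CPM in scrambled libraries.

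**Figure D3:**
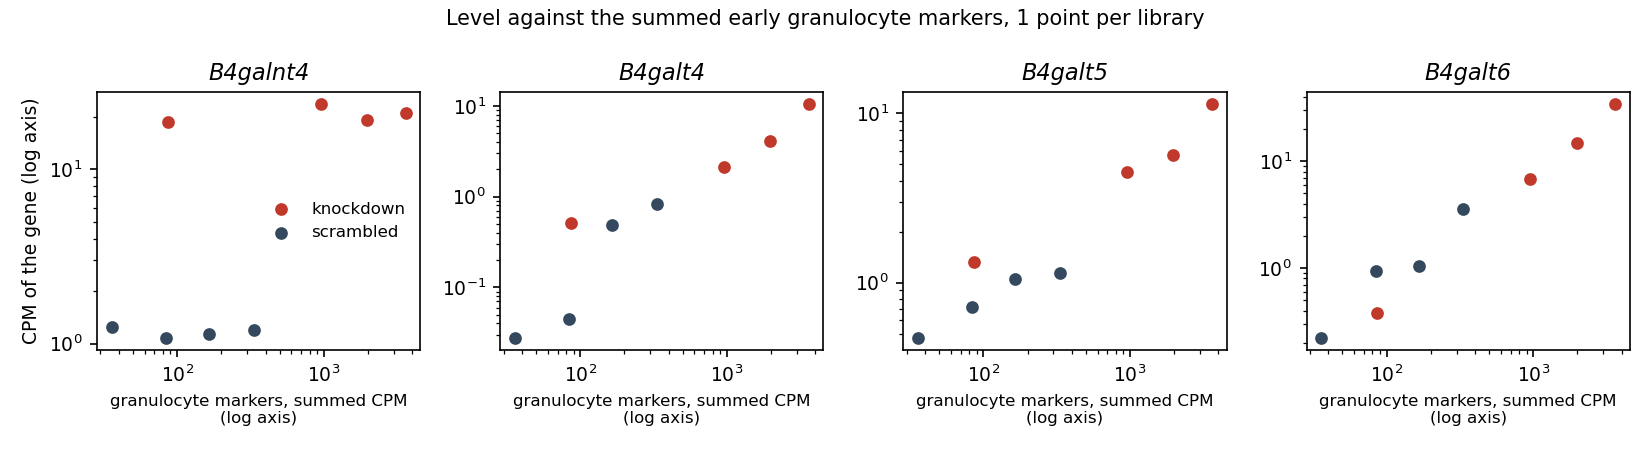
Level of B4galnt4, B4galt4, B4galt5 and B4galt6 (CPM, log axis) against the summed early granulocyte markers (CPM, log axis) in each library, with knockdown and scrambled libraries in separate colours. B4galnt4 is flat within each group, at 18.7 to 23.8 CPM in knockdown libraries across marker sums of 86.7 to 3609.5 CPM, whereas the other 3 genes are highest where the markers are.

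The genes around B4galnt4 were compared next, since neighbouring genes were not used to choose it. Of the 20 nearest genes with counts, 10 on each side and within 169.0 kb upstream and 156.4 kb downstream, 16 were tested, 1 was called higher and none lower by edgeR; at an unadjusted p under 0.05, 2 were higher and 0 lower, and DESeq2 called 2 higher. A count of 1 in 16 is near the 8.02% of all tested genes that were called higher. The called gene is Pkp3, plakophilin 3, a desmosome protein, whose start is 5.8 kb downstream of the end of B4galnt4 on the same strand (chromosome 7, 141078218 to 141090510). Its level was 8.50, 14.8, 10.8 and 14.7 CPM in knockdown libraries, against 6.47, 5.14, 3.97 and 6.34 CPM in scrambled libraries, without overlap. The log2 fold change was 1.16 (SE 0.23, edgeR adjusted p = 0.0164), and the call was lost without scrambled replicate 2 (adjusted p = 0.0597).

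The median log2 fold change of the 16 tested neighbours was 0.22. Further downstream, Sigirr, a negative regulator of interleukin-1 receptor signalling, averaged 7.68 CPM in knockdown and 6.39 CPM in scrambled libraries (log2 fold change 0.26, edgeR adjusted p = 0.428), and Ano9 averaged 0.201 CPM in knockdown and 0.057 CPM in scrambled libraries and was not tested. Upstream lie interferon-induced transmembrane genes. Ifitm6 averaged 0.261 CPM in knockdown and 0.0603 CPM in scrambled libraries and was not tested, and Ifitm3 averaged 61.3 CPM in knockdown and 41.0 CPM in scrambled libraries (log2 fold change 0.58, edgeR adjusted p = 0.225). Ifitm1 had 24.3, 39.4, 5.39 and 141.5 CPM in knockdown libraries, against 3.97, 12.1, 13.6 and 3.10 CPM in scrambled libraries. Its lowest knockdown library was again replicate 3, the groups overlapped, and the log2 fold change of 2.67 (SE 0.95) did not pass the test (edgeR adjusted p = 0.0903).

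**Figure D4:**
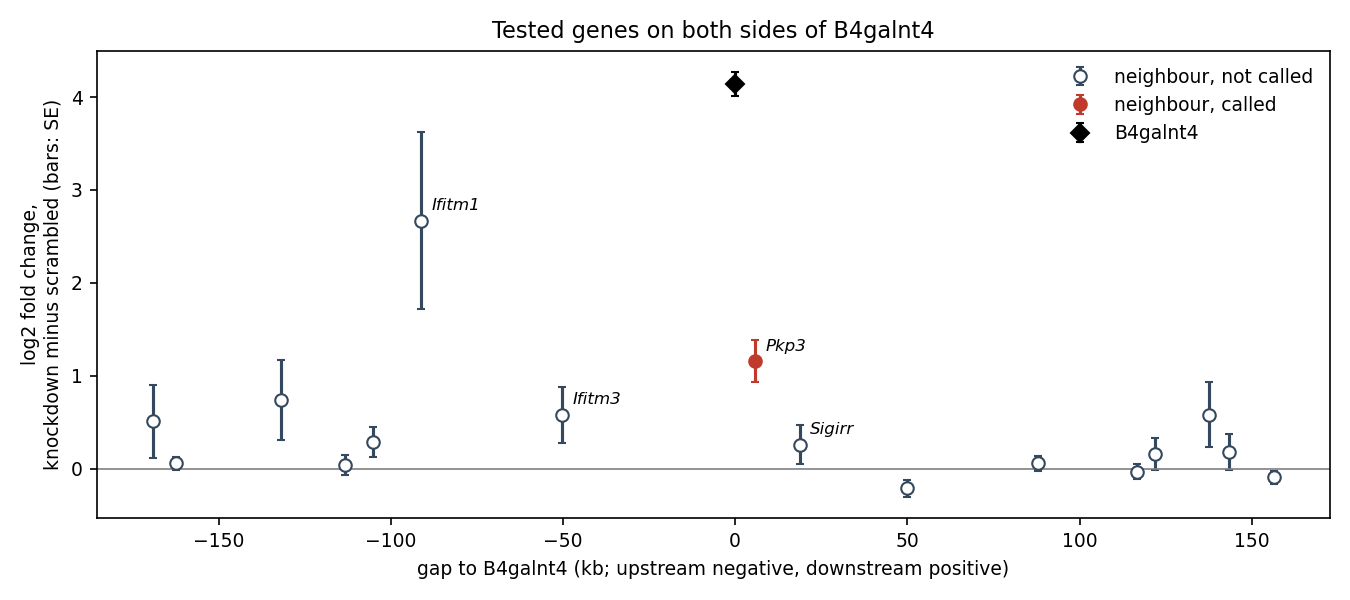
Log2 fold change of knockdown over scrambled, with its standard error, for B4galnt4 and its tested neighbours, against the distance from B4galnt4 in kb (upstream to the left). B4galnt4 is at 4.14; downstream of it lie Pkp3 at 1.16 and Sigirr at 0.26, and upstream Ifitm3 at 0.58 and Ifitm1 at 2.67, the last with a wide error.

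Across the 8 libraries, 5 genes had profiles most like that of B4galnt4, measured as the root mean square difference between centred log2(CPM + 0.1) values among 9286 genes averaging at least 5 CPM. The closest was Pimreg, a mitotic regulator, with a difference of 0.65 on the log2 scale. It had 13.9, 12.1, 12.8 and 14.6 CPM in knockdown libraries, against 1.89, 1.69, 1.82 and 0.45 CPM in scrambled libraries. D430019H16Rik followed at 0.70, Rel, an NF-kB subunit, at 0.71, Tpm4, a tropomyosin, at 0.82, and Dtx4, a Deltex ubiquitin ligase, at 0.90. Their own log2 fold changes were between 2.95 and 3.17, as the measure favours genes with a difference near that of B4galnt4. Within the knockdown group Tpm4 and Dtx4 spanned 4.38 to 17.8 and 7.17 to 31.4 CPM, in the order of the early granulocyte markers. With that covariate their log2 fold changes were 2.08 and 1.78. Those of Rel, Pimreg and D430019H16Rik were 2.47, 3.04 and 3.16, and all 5 genes were still called.

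The other genes of the same glycan routes were described from 95 listed genes, of which 81 were tested. Where a list is read by its highest CPM, this is the mean over all 8 libraries and is not per length. In knockdown libraries 17 rose and 8 fell, 21.0% and 9.88% of those tested, beside 8.02% and 7.29% of all tested genes, and 56 were not called. The median log2 fold change was 0.11, beside 0.00 for all tested genes. Leaving out 1 library at a time gave 8 to 26 genes higher and 1 to 10 lower, and with the early granulocyte covariate 7 were called higher and 1 lower. These genes were listed with earlier results of the data known, and the counts are descriptions.

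Of 6 tested relatives that transfer GalNAc or build chondroitin, 1 rose, beside 8.02% of all tested genes, and the median log2 fold change was 0.13. This was Chpf2, a chondroitin polymerising factor, at 58.8 ± 9.67 CPM in knockdown and 38.1 ± 2.02 CPM in scrambled libraries (SD, n = 4 each; log2 fold change 0.63, SE 0.11, edgeR adjusted p = 0.0118). Chsy1, a chondroitin synthase with the highest CPM of this group, averaged 99.6 CPM in knockdown and 93.4 CPM in scrambled libraries. B4galnt2, which makes the Sda blood group ending, averaged 4.64 ± 0.526 CPM in knockdown and 5.54 ± 1.44 CPM in scrambled libraries (SD, n = 4 each; edgeR adjusted p = 0.421).

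Among 7 tested genes that cap or recognise LacdiNAc, 1 fell, beside 7.29% of all tested genes, and the median log2 fold change was -0.05. The sulfotransferase Chst9, which can add sulfate to LacdiNAc, and the fucosyltransferase Fut9 were at 0 in all 8 libraries, and the sulfotransferase Chst8 averaged 0.0248 CPM in knockdown libraries and was at 0 in scrambled libraries. St3gal4, a sialyltransferase, had 119.4, 124.6, 148.7 and 115.3 CPM in knockdown libraries, against 162.9, 164.0, 143.5 and 172.4 CPM in scrambled libraries. It fell by 0.34 on the log2 scale (SE 0.09, edgeR adjusted p = 0.0393), and its groups overlapped through knockdown replicate 3. The call was lost on leaving out any library except knockdown replicate 3, with adjusted p up to 0.0954, and with the early granulocyte covariate the log2 fold change was -0.14 (edgeR adjusted p = 0.30).

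The list for the start of mucin-type O-glycans had the highest median of the 9 lists, a log2 fold change of 0.79. It holds Galnt genes, whose family adds GalNAc to serine and threonine, and also C1galt1 and C1galt1c1. Of 11 tested 4 rose and 1 fell, beside 8.02% and 7.29% of all tested genes. Galnt6 had 41.6, 46.9, 45.2 and 42.2 CPM in knockdown libraries, against 12.5, 9.88, 12.4 and 5.93 CPM in scrambled libraries. The groups were well apart, and the log2 fold change was 2.11 (SE 0.21, edgeR adjusted p = 0.00216). Galnt10 rose to 44.8 ± 5.91 CPM in knockdown, against 22.3 ± 3.38 CPM in scrambled libraries, and Galnt7 to 58.2 ± 9.45 CPM in knockdown, against 33.6 ± 3.60 CPM in scrambled libraries (SD, n = 4 each). The scarcer Galnt12 also rose, to 3.05 ± 1.49 CPM in knockdown, against 0.874 ± 0.382 CPM in scrambled libraries. C1galt1, which extends these glycans with galactose, fell to 133.1 ± 19.0 CPM in knockdown, against 174.7 ± 12.7 CPM in scrambled libraries (log2 fold change -0.39, edgeR adjusted p = 0.0373). Leaving out 1 library ended the call of Galnt12 for all but knockdown replicate 3 (adjusted p up to 0.0955) and that of C1galt1 for 5 of the 8 libraries, knockdown replicates 1 and 2 and scrambled replicates 1 to 3 (adjusted p up to 0.0954). With the early granulocyte covariate the log2 fold change of Galnt12 was 0.77 in place of 1.79 (edgeR adjusted p = 0.305) and that of Galnt7 0.50 in place of 0.79 (edgeR adjusted p = 0.0394), while that of Galnt6 stayed at 2.11. The gene with the highest CPM, Galnt1, averaged 218.8 CPM in knockdown and 196.9 CPM in scrambled libraries and was not called.

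The supply of the donor sugars was mixed: of 17 tested genes 4 rose and 2 fell, beside 8.02% and 7.29% of all tested genes. The median log2 fold change was 0.00. Galk1, galactokinase, rose to 80.2 ± 11.1 CPM in knockdown, against 42.6 ± 5.66 CPM in scrambled libraries (log2 fold change 0.91, edgeR adjusted p = 0.00489), and Galk2, which phosphorylates GalNAc, to 17.1 ± 4.03 CPM in knockdown, against 7.74 ± 0.323 CPM in scrambled libraries (log2 fold change 1.14, edgeR adjusted p = 0.00661). Ugp2, which makes UDP-glucose, rose to 25.9 ± 5.18 CPM in knockdown, against 16.7 ± 1.43 CPM in scrambled libraries. Uap1, the enzyme of the last step to UDP-N-acetylglucosamine, had 70.2, 66.2, 81.5 and 64.1 CPM in knockdown libraries, against 133.1, 139.7, 155.9 and 120.9 CPM in scrambled libraries. It fell by 0.96 on the log2 scale (SE 0.10, edgeR adjusted p = 0.00222), while its relative Uap1l1 rose to 13.4 ± 5.51 CPM in knockdown, against 3.73 ± 1.44 CPM in scrambled libraries. Slc35d1, a nucleotide sugar transporter, fell to 39.4 ± 2.56 CPM in knockdown, against 46.2 ± 0.600 CPM in scrambled libraries. Leaving out 1 library ended the calls of Ugp2 (scrambled replicates 1 to 3), Uap1l1 (the same and knockdown replicates 1, 2 and 4) and Slc35d1 (every library except knockdown replicate 3), with adjusted p up to 0.0716, 0.0728 and 0.102, and none of those of Galk1, Galk2 and Uap1. The knockdown libraries of Uap1l1 ran 4, 1, 2 and 3 from high to low, as the early granulocyte markers did, and with that covariate its log2 fold change was 0.92 in place of 1.84 (edgeR adjusted p = 0.182) and that of Ugp2 0.40 in place of 0.63 (edgeR adjusted p = 0.169). The gene with the highest CPM over all 8 libraries, Gfpt1, averaged 119.1 CPM in knockdown and 134.2 CPM in scrambled libraries and was not called.

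On the glycolipid route, the list leaves out the members B4galnt1, B4galt5 and B4galt6, of which B4galt5 was called higher, as given above. Of 7 tested synthesis genes in the list 3 fell by edgeR, beside 7.29% of all tested genes, and none rose. On the higher side 1 had an unadjusted p under 0.05 and DESeq2 called 1. The median log2 fold change of the list was -0.18. St3gal5, the GM3 synthase upstream of B4galnt1, had 93.0, 86.8, 128.6 and 92.9 CPM in knockdown libraries, against 132.8, 153.2, 141.5 and 131.6 CPM in scrambled libraries (log2 fold change -0.48, SE 0.12, edgeR adjusted p = 0.0343). St3gal1 fell to 86.2 ± 5.50 CPM in knockdown, against 108.2 ± 6.73 CPM in scrambled libraries, and Ugt8a, the galactosylceramide synthase, to 2.42 ± 1.04 CPM in knockdown, against 8.97 ± 3.29 CPM in scrambled libraries (SD, n = 4 each). These calls did not survive every omission of 1 library: St3gal5 lost its call without knockdown replicate 1, 2 or 4 or scrambled replicate 1, 2 or 3, St3gal1 without scrambled replicate 2 or 3, and Ugt8a without knockdown replicate 1 or scrambled replicate 1, 2 or 3 (adjusted p up to 0.0928, 0.0623 and 0.0678). With the early granulocyte covariate none of the 3 was called, and the log2 fold change of St3gal5 was -0.30 (edgeR adjusted p = 0.213). Ugcg, which makes the glucosylceramide that B4galt5 and B4galt6 extend, averaged 248.4 CPM in knockdown and 281.4 CPM in scrambled libraries and was not called.

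Of the ganglioside breakdown genes, 5 of 10 tested rose and 1 fell, beside 8.02% and 7.29% of all tested genes. The median log2 fold change was 0.50. The lysosomal sialidase Neu1 rose to 51.5 ± 9.31 CPM in knockdown, against 29.6 ± 4.47 CPM in scrambled libraries (SD, n = 4 each; log2 fold change 0.80, edgeR adjusted p = 0.0127). Hexa, a hexosaminidase subunit that acts on GM2, had 54.0, 37.4, 26.1 and 58.7 CPM in knockdown libraries, against 18.8, 20.5, 21.3 and 15.2 CPM in scrambled libraries, without overlap (log2 fold change 1.22, edgeR adjusted p = 0.0192). Asah1, the acid ceramidase, and Glb1, the lysosomal beta-galactosidase, rose by 0.97 and 0.55 on the log2 scale (edgeR adjusted p = 0.0161 and 0.0403). Neu3, the plasma membrane sialidase, fell to 10.6 ± 2.51 CPM in knockdown, against 17.4 ± 2.83 CPM in scrambled libraries. Hexa, whose knockdown libraries ran in the order of the early granulocyte markers, had a log2 fold change of 0.60 with that covariate (edgeR adjusted p = 0.091). Psap, with the highest CPM, averaged 321.7 CPM in knockdown and 268.3 CPM in scrambled libraries and was not called. With the early granulocyte covariate 1 gene of the list was called higher, and leaving out 1 library at a time gave 1 to 6. Without scrambled replicate 2 or scrambled replicate 3 the calls of Asah1, Hexa, Glb1 and Neu3 were all lost; Hexa, Glb1 and Neu3 also lost theirs without some of the other libraries, with adjusted p up to 0.0963, while that of Neu1 was kept.

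In N-glycan branching 2 of 8 tested genes rose, beside 8.02% of all tested genes, and the median log2 fold change was 0.09. Man2a2, a Golgi mannosidase, rose to 101.2 ± 20.2 CPM in knockdown, against 54.2 ± 7.35 CPM in scrambled libraries, and Mgat5, which opens the branch that carries long N-acetyllactosamine chains, to 76.5 ± 17.9 CPM in knockdown, against 43.2 ± 6.91 CPM in scrambled libraries (SD, n = 4 each; log2 fold changes 0.90 and 0.82, edgeR adjusted p = 0.0118 and 0.0224). The call of Mgat5 was lost without knockdown replicate 1 or 2 or scrambled replicate 2 or 3 (adjusted p up to 0.0762). With the early granulocyte covariate the log2 fold change of Mgat5 was 0.50 (edgeR adjusted p = 0.177) and that of Man2a2 0.67 (edgeR adjusted p = 0.0883). Man2a1, with the highest CPM of this list over all 8 libraries, averaged 103.3 CPM in knockdown and 128.0 CPM in scrambled libraries and was not called. None of 7 tested genes that extend N-acetyllactosamine chains and core structures was called by edgeR, where 2 on the higher and 1 on the lower side had an unadjusted p under 0.05 and DESeq2 called 1 higher; Gcnt1 averaged 54.0 CPM in knockdown and 57.8 CPM in scrambled libraries. Of 8 tested genes of the glycosaminoglycan linker, in which B4galt7 acts, 1 rose: Pxylp1, a xylose phosphatase, at 6.59 ± 4.58 CPM in knockdown and 1.35 ± 0.389 CPM in scrambled libraries, with overlapping groups (log2 fold change 2.29, SE 0.58, edgeR adjusted p = 0.0347), a call lost without any library but knockdown replicate 3 (adjusted p up to 0.0929). Its knockdown libraries ran 4, 1, 2 and 3 from high to low, as the early granulocyte markers did, and with their level as a covariate its log2 fold change was 0.48 (edgeR adjusted p = 0.407). Fam20b, the xylose kinase, with the highest CPM of these, averaged 113.2 CPM in knockdown and 128.1 CPM in scrambled libraries.

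**Figure D5:**
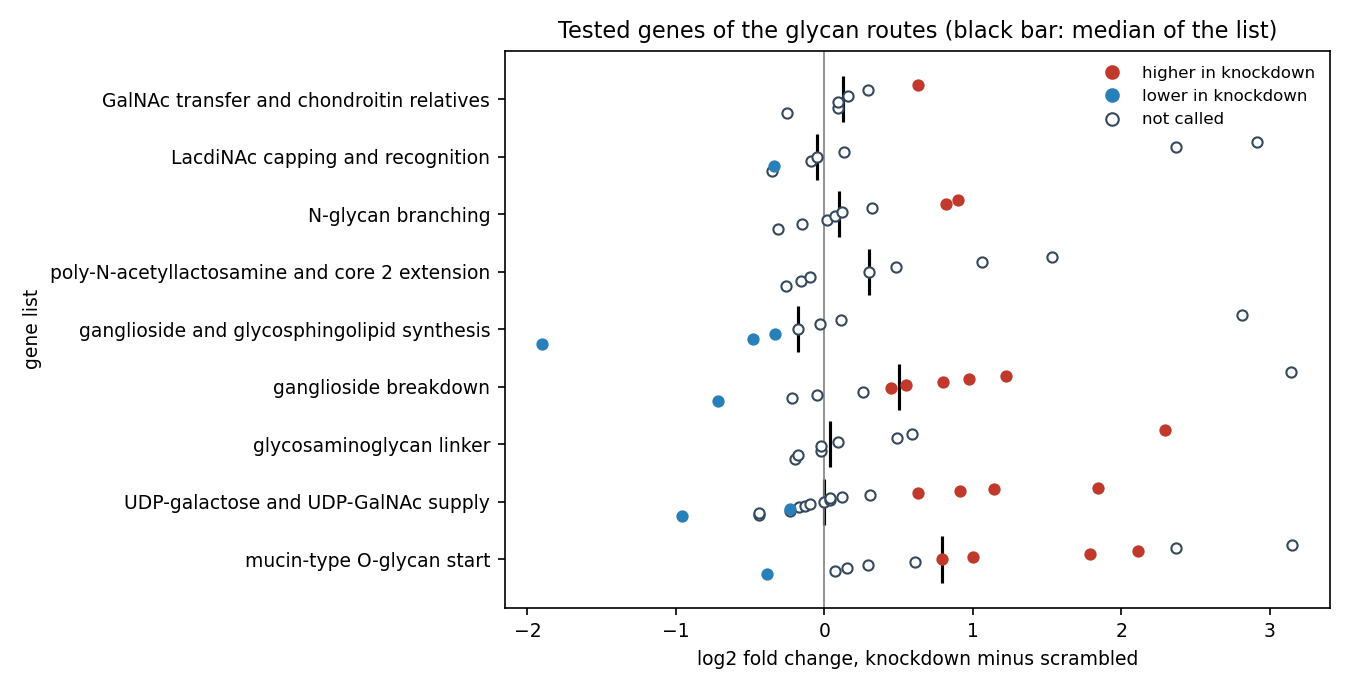
Log2 fold change of knockdown over scrambled for every tested gene of the 9 pathway lists, with called genes in colour and each list's median as a bar. The medians run between -0.18 for ganglioside synthesis and 0.79 for the start of mucin-type O-glycans.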

How the data were processed

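RNA was taken from sorted marrow cells of 8 mice; per the labels' protocols, 500 ng per library went into stranded total RNA kits with ribosomal RNA depletion (2 kits are named, with no record of which library had which). The authors deposited one table with raw read counts per gene for each library and their own DESeq2 comparison: a mean normalised signal, log2 fold change with its standard error, test score and p-value with its adjusted value. The submitters' processing notes name CASAVA 1.8 and DESeq2 1.18.1, and the design text R 3.4.3 and biomaRt 2.34.2; the aligner, counting tool, strand setting, annotation and build of the counts are not stated there. All count columns matched a library.

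The counts were analysed with edgeR 4.0.16 in R 4.3.3: filterByExpr by group (a cutoff near 0.304 CPM), TMM scaling, robust quasi-likelihood F tests (two-sided) on group alone, and Benjamini-Hochberg adjustment over 13462 genes. CPM (counts scaled by library size in tested genes) are after TMM, and the precision of a gene's value depends on its counts. Positions and exon lengths come from GENCODE M21 (GRCm38), and promoters from RefSeq (GRCm38.p6). The procedure was checked on simulated counts. No 2 libraries of a group agreed within sampling noise (chi-square per degree of freedom 10.7 to 88.9). Alternatives were DESeq2 1.42.0, limma-voom (limma 3.58.1), DESeq2's type of size factors, no low count filter, a filter at 1 CPM in 4 libraries, a replicate block, leaving out each library, and, added after seeing the data, the mean log2 CPM of 7 early granulocyte markers as a covariate. Replicate numbers did not pair the libraries. The members and lists were chosen with earlier results of these data known. Genes named are all 10 members; in each list the called genes (up to 6 per direction) and the one with the highest mean CPM over all libraries; the 3 nearest neighbours on each side and any called; the 5 genes most like B4galnt4; and Fubp1. A few other genes (Tnfrsf13c, B4galnt2, Chst8, Chst9, Fut9 and individual cell type markers) were named after their values were seen. Some genes that the rule names are not reported here.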

Additional observations from a re-analysis of the deposited data

Results flagged for a closer look

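Of 132 groups of 4 libraries examined for the named genes and marker sums, 12 held 1 library whose gap to the nearest other exceeded Dixon's critical value, where chance alone marks about 1 in 20. Scrambled replicate 4 was the library in 5 of them. It had 12.4 CPM of B4galt7 (others 13.5 to 13.7 CPM), 19.1 CPM of Glb1 (others 30.3 to 31.3 CPM), 4.99 CPM of Sigirr (others 6.77 to 6.91 CPM), 0.45 CPM of Pimreg (others 1.69 to 1.89 CPM) and 395.9 CPM of Fubp1 (others 284.3 to 296.1 CPM). Knockdown replicate 4 had 184.4 CPM of B4galnt1 (others 122.5 to 132.4 CPM), 33.5 CPM of Ugp2 (others 22.2 to 24.0 CPM) and 0.827 CPM of Ifitm6 (others 0.033 to 0.121 CPM). St3gal5 had 128.6 CPM in knockdown replicate 3 (others 86.8 to 93.0 CPM). Basophil and mast cell markers summed to 184.2 CPM in scrambled replicate 1 (others 151.8 to 155.7 CPM). Almost all of that sum was Gata2, at 183.1 CPM, which is also on the progenitor list. Cpa3, Mcpt8, Prss34 and Ms4a2 had 0.389, 0.305, 0.139 and 0.25 CPM there, each its lowest level in the scrambled group. In knockdown replicate 1 the endothelial markers summed to 4.75 CPM (others 1.33 to 1.76 CPM) and the stromal markers to 731.0 CPM (others 20.0 to 41.8 CPM). Tek gave 4.31 CPM of the endothelial sum, while Kdr was at its lowest of the knockdown group, at 0.322 CPM. Col1a1 and Col1a2 gave most of the stromal sum, at 331.7 and 397.3 CPM. Cxcl12, Lepr and Pdgfrb had only 0.0806, 0.161 and 1.69 CPM in that library.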

How the results depend on the processing

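The B4galnt4 log2 fold change was 4.07 to 4.18 over all 15 alternatives, the same range as on leaving out 1 library. Relatives called higher numbered 2, but 4 by DESeq2, 0 by limma-voom, 1 without the low count filter, 0 with the covariate and 0 to 4 with 1 library left out; relatives called lower numbered 0, but 1 by DESeq2. Pathway genes called higher numbered 17, but 7 with the covariate and 8 to 26 with 1 library left out, and those called lower 8, but 1 with the covariate and 1 to 10. Neighbours called numbered 1, but 2 by DESeq2, 0 with the covariate and 0 to 3. With the replicate block, 0 relatives, 6 pathway genes higher and 2 lower, and 0 neighbours were called. The samples share only a number: same-numbered libraries correlated at -0.42, 0.022, -0.558 and -0.22 in their deviations, and 0 of 8 libraries correlated best with its own number. Log2 fold changes reversed with the covariate for B4galnt1 (-0.17), B4galt6 (-0.89), B4galt7 (-0.04), Ifitm1 (-0.20) and Sigirr (-0.09), and on leaving out 1 library for B4galnt3 (-0.01 without knockdown replicate 1, -0.12 without scrambled replicate 2; range -0.12 to 0.37), B4galnt1 (-0.11 without knockdown replicate 4, -0.04 without scrambled replicate 4; range -0.11 to 0.10), B4galt7 (-0.01 without scrambled replicate 4; range -0.01 to 0.06) and Gcnt1 (0.01 without knockdown replicate 2; range -0.20 to 0.01); the cause was not tested. Of 763 values over 51 single genes, 595 kept direction and side of the threshold, 144 lost a call, 13 gained one and 11 reversed. Without knockdown replicate 3, B4galt2, B4galt4 and B4galt6 were called (1.90, 3.91 and 3.66, edgeR adjusted p = 0.027, 0.0247 and 0.0254). Counts of under 40 reads in every library limit B4galnt3 and B4galt2. Low counts in scrambled replicates 1 to 4 also limit the fold changes of other members. These were 1, 16, 32 and 1 for B4galt4, 17, 34, 44 and 16 for B4galt5, and 8, 34, 137 and 21 for B4galt6. B4galnt4 had 45, 37, 46 and 24.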
